A study of Arabidopsis thaliana with 56 samples.

Results

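The 10 genes described here form the core of the circadian clock of Arabidopsis, and were taken by their gene IDs from the 33016 genes of each count table. They are CCA1 (AT2G46830), LHY (AT1G01060), PRR9 (AT2G46790), PRR7 (AT5G02810), PRR5 (AT5G24470), TOC1 (AT5G61380), GI (AT1G22770), LUX (AT3G46640), ELF4 (AT2G40080) and ELF3 (AT2G25930). All 10 were measured and passed the filter on low counts in each comparison. The questions were how much of each transcript empty vector (EV) cells contained, and which of the assayed transcription factors (TFs) changed it.

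The measurements come from the TARGET assay, in which root protoplasts (cells without walls) of 10-day-old Col-0 seedlings were transfected with a vector that expresses 1 TF, or with EV as control. All 56 RNA-seq libraries, EV included, come from cells given 35 µM cycloheximide, which blocks translation, and 10 µM dexamethasone, which lets the TF enter the nucleus. Batch 1 held ABF1, FBH3, HSFA6A, ZAT6 and EV. Batch 2 held DIV2, GBF2, HSFA6A, MYB3, MYBR1, WRKY33 and EV, and batch 3 held ABF3, DREB2A, FBH3, GBF2, GBF3, HB7 and EV. Each of these 19 groups had 3 libraries, apart from ABF3 with 2. Replicates were wells of cells from 1 transfection, so the p-values measure only the spread between wells. The TFs sat on vectors with different fluorescent markers, and the marker of each library is not given in the labels, so the vector and the TF cannot be told apart. The TF was expressed above its own natural level in isolated cells, which have lost their contact with the root.

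The plant clock is a set of transcriptional loops that run over the day. CCA1 and LHY are related MYB-type repressors that accumulate around dawn, and the pseudo-response regulators PRR9, PRR7 and PRR5 follow them through the day and repress them. TOC1 is the evening member of the same family, and GI stabilises the protein that degrades TOC1 and PRR5. LUX, ELF4 and ELF3 form the evening complex, in which LUX binds DNA, and which represses PRR9, PRR7, GI and LUX itself. In roots, the clock is known to run with fewer of its loops and to be set in part by the shoot, a contact that isolated protoplasts lack. The hour at which each library was harvested is not given in the sources used here, so the hour and the batch cannot be told apart.

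The 250 bases before the annotated start of 9 of the genes, all but ELF4, were read from the RefSeq genome (TAIR10.1). They were searched on both strands for DNA words bound by clock proteins and by some of the TF families assayed. No word was included for MYB3, MYBR1, DIV2 or ZAT6, so their sites were not searched for. The G-box CACGTG, the word that GBF2 and GBF3 are known to bind, was found before 5 of the 9 genes, CCA1, LHY, PRR9, PRR7 and LUX. It stood in 6.49% of the 27443 protein-coding promoters of the same length. The evening element AAATATCT, which CCA1 and LHY bind, was found before PRR5, TOC1 and LUX, and in 4.79% of all promoters. The upstream sequences of the morning genes CCA1, LHY and PRR9 are shown because these genes carried 7 of the 10 changes described below, and those of TOC1 and LUX because they hold the evening element. Capitals mark the G-box and the evening element on either strand.
CCA1, chr2:19245341-19245590, plus strand: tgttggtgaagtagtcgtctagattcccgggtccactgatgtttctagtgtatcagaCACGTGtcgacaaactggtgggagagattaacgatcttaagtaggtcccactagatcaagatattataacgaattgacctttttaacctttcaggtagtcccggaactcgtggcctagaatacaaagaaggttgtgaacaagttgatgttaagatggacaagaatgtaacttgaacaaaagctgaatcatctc
LHY, chr1:37872-38121, minus strand: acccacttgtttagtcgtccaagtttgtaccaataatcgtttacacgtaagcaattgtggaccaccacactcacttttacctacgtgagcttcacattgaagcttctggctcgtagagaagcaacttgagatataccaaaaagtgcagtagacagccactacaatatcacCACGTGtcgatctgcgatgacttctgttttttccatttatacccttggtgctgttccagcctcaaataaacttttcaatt
PRR9, chr2:19232357-19232606, plus strand: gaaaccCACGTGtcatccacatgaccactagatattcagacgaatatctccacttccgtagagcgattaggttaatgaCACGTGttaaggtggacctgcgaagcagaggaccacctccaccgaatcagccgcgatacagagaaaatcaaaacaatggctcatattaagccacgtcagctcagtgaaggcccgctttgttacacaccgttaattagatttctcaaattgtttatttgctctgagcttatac
TOC1, chr5:24674713-24674962, plus strand: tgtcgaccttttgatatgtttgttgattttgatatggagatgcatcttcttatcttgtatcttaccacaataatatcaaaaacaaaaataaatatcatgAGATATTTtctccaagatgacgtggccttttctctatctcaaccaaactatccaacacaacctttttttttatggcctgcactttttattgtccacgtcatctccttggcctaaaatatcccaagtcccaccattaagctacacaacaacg
LUX, chr3:17182792-17183041, plus strand: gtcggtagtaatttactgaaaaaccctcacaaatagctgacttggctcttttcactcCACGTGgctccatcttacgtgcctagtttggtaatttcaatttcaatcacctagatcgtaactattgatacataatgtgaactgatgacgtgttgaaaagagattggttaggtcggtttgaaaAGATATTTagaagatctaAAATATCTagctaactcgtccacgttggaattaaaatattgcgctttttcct

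CCA1 had 1 G-box, 193 bases before the gene start, LHY had 1 at 80 bases, and PRR9 had 1 at 244 and 1 at 172 bases. LUX had 1 G-box and 2 evening elements, and TOC1 had 1 evening element. The other words were ACGTG, the core that ABFs bind, before 6 of the 9 genes and 22.9% of all promoters. The G-box contains ACGTG, so these are the genes with a G-box and, in addition, TOC1. CANNTG, which includes the G-box, stood before 6 and 55.3%. TTGAC, the WRKY core, stood before CCA1 and PRR7 and before 44.9% of all promoters, and CCGAC, the DREB core, before PRR5 and LUX and before 12% of all. GATTCG, a LUX word, was found before PRR9 and 7.88% of all promoters, and GATACG before ELF3 and 4.59%. The CCA1-binding site AAAAATCT stood before PRR5 and 6.69% of all, and the heat shock word GAANNTTC before LHY, PRR7, ELF3 and 9.55%. The HD-Zip word AATNATT was before none of the 9 and before 30.5% of all promoters. These matches describe the letters only.

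Total counts per library ran from 8619133 to 29763752, and 4 ribosomal-RNA-like loci held between 0.996% and 78.1% of them. As a check of the labels, the gene of each transfected TF exceeded all EV libraries of the batch wherever that TF was transfected, in all 16 combinations of TF and batch. EV replicate 1 of batch 3 stood apart, with a median correlation with its group of 0.908, against 0.940 to 0.989 for the libraries outside that group, and it serves as a control in the 6 comparisons of batch 3. Results of batch 3 are therefore given with and without it where it changes a call. Of the 8 root markers, WER, COBL9 and EXP7 (epidermis and root hairs) were at 0 counts in 30, 47 and 34 libraries, while SCR, PHO1 and SUC2 (endodermis and vasculature) were present in all 56. The 5 leaf mesophyll markers summed to between 0.399 and 8.02 CPM. In bulk samples, fewer cells of a type and less RNA per cell cannot be told apart. The reads for the 10 genes ranged from ELF4, with 0 to 180 counts per library, to TOC1, with 1033 to 5264. LUX shares 1507 bases with AT3G46650 on the other strand, a gene with at most 13 counts per library, and ELF3 shares 24 bases with AT2G25940. Whether counting used strand is not stated, so reads in those stretches are uncertain.

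In EV cells, TOC1 was the most abundant of the 10 transcripts, and LUX and ELF4 were the lowest per length. Levels between genes are compared as CPM (counts scaled to library size, with TMM factors) per kilobase of exon. TOC1 stood at 51.4 ± 3.37 CPM per kb (SD, n = 9), above 94.9% of the 25029 genes with counts in EV. CCA1 followed at 25.9 ± 6.96 CPM per kb (SD, n = 9), and the lowest TOC1 library (47.8) was above the highest CCA1 library (39.8). The next 3 levels were 17.9 ± 6.46 CPM per kb for LHY, 17.5 ± 2.97 for PRR9 and 17.1 ± 3.49 for PRR5 (SD, n = 9 each). These 3 did not differ beyond their spread, and the ranges of CCA1 and LHY overlapped.

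The other 5 genes lay close together. GI had 8.74 ± 1.36 CPM per kb, ELF3 had 7.99 ± 1.29 and PRR7 had 6.90 ± 1.63 (SD, n = 9 each), so that these neighbours did not differ beyond their spread. ELF4 had 4.45 ± 2.30 and LUX had 3.74 ± 1.03 CPM per kb (SD, n = 9 each), with overlapping ranges. Their order depends on the exon lengths used, 619 bases for ELF4 and 3916 for LUX. Without division by length, ELF4 was the lower, at 2.75 ± 1.43 CPM against 14.6 ± 4.02 CPM for LUX (SD, n = 9 each). LUX was above 58.1% of the genes with counts in EV. Thus, per kb of exon, LUX and ELF4 of the evening complex stood at the low end of the set and the evening regulator TOC1 at the top. ELF4 was listed at 0 counts in EV replicate 1 of batch 3, which allows up to 3 counts or 0.211 CPM.

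**Figure D1:**
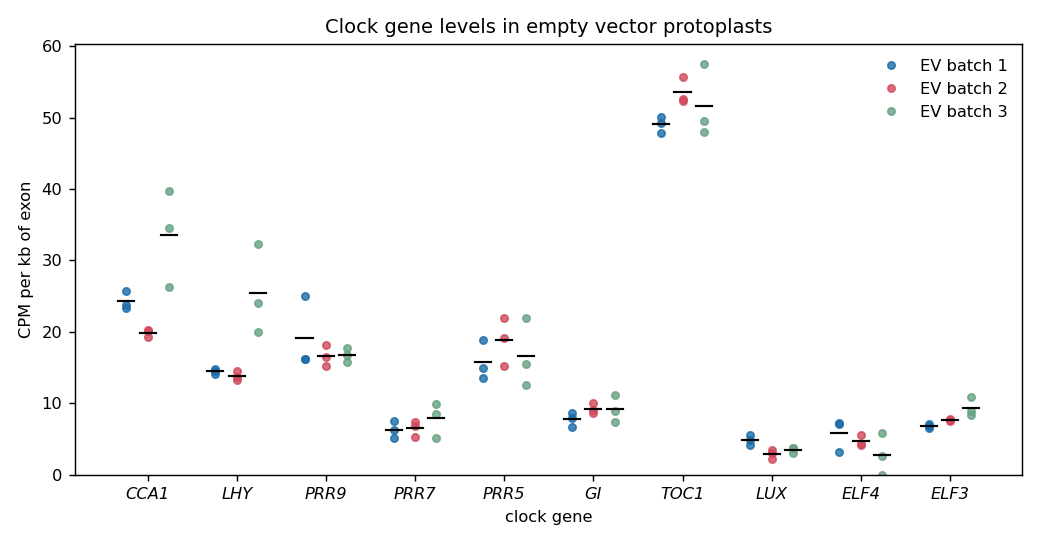
Level of the 10 clock genes in the 9 EV libraries, in CPM per kb of exon, with the batches side by side, points for libraries and bars for means. TOC1 lies between 47.8 and 57.4 CPM per kb, above every library of the other genes, and CCA1 and LHY are highest in batch 3.

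Of the 10 genes, 2 differed between the EV batches, and both were morning genes. CCA1 averaged 91.3 ± 18.4 CPM in batch 3, 54.1 ± 1.40 in batch 2 and 66.1 ± 3.45 in batch 1 (SD, n = 3 each). The libraries of batch 3 had 71.7, 93.9 and 108 CPM, those of batch 2 had 52.5, 54.6 and 55.2, and those of batch 1 had 63.5, 64.7 and 70.0. CCA1 was thus highest in batch 3 and lowest in batch 2, with no overlap between batches. LHY had 111, 68.1 and 82.1 CPM in batch 3, 46.7, 49.9 and 45.6 in batch 2, and 49.6, 50.7 and 48.4 in batch 1. For LHY, every library of batch 3 was above every library of the other batches. The F test of edgeR over the 3 batches gave an adjusted p of 0.0154 for CCA1 and 0.00580 for LHY, and called 11.7% of all genes tested. The adjusted p of CCA1 was above 0.05, at most 0.0651, without EV replicate 3 of batch 3 or without any 1 of the 3 EV libraries of batch 2, while LHY remained called without each library in turn. Without EV replicate 1 of batch 3, PRR7 and LUX were called as well (adjusted p = 0.0494 and 0.0205), and the adjusted p was 6.99e-05 for CCA1 and 0.000899 for LHY.

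Across the TFs, 10 of the 160 combinations of clock gene and comparison passed an adjusted p of 0.05 in the quasi-likelihood test of edgeR, 8 upward and 2 downward. That is 6.25%, against 5.93% over all genes and comparisons, so the clock genes were called about as often as any gene. The morning genes CCA1, LHY and PRR9 held 7 of the 10 calls (14.6% of their 48 combinations), the day genes PRR7, PRR5 and GI 1 of 48, and the evening genes TOC1, LUX, ELF4 and ELF3 2 of 64. PRR7, PRR5, LUX and ELF4 were not called in any of the 16 comparisons, and 0, 4, 4 and 0 of their 16 comparisons had an unadjusted p under 0.05. Of all genes tested, between 1032 of 18869 (HSFA6A in batch 1) and 5285 of 18899 (DIV2) had such a p per comparison. Of the 10 calls, 9 came from the 6 comparisons of batch 2, which share the same 3 EV libraries. Those comparisons also used the other EV libraries through the batch term. Calls of all genes were also more frequent in batch 2, at 2.53% to 18.1% per comparison, against 0.0106% to 8.85% in batches 1 and 3.

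In batch 2, 3 of the 10 clock genes were called with DIV2, against a background of 18.1% of all genes tested. MYBR1 changed 3 of 10, with 11.9% of all genes called, and MYB3 changed 2 of 10, with 10.6%. GBF2 changed 1 of 10, with 12.8%. HSFA6A and WRKY33 changed none, with 2.53% and 6.22% of all genes called, and 2 and 1 clock genes at an unadjusted p under 0.05. Of all genes tested, 2222 of 18942 and 3092 of 18870 had such a p. In batch 3, GBF2 changed 1 of 10, with a background of 8.85%. HB7, FBH3, DREB2A and ABF3 changed none at backgrounds of 5.52%, 4.32%, 2.72% and 1.81%, and GBF3 none at 0.0157%. In that order, 2, 2, 3, 3 and 1 clock genes had an unadjusted p under 0.05. Of all genes tested, such a p was found for 3444 of 19496, 2911 of 19345, 2851 of 19377, 2591 of 20067 and 1938 of 19132. In batch 1 no clock gene was called with FBH3 (6.24% of all genes called), ZAT6 (3.19%), ABF1 (0.495%) or HSFA6A (0.0106%). In that order, 1, 3, 2 and 1 had an unadjusted p under 0.05, against 3361 of 19141, 3164 of 18923, 1118 of 19182 and 1032 of 18869 of all genes tested. DESeq2 called 1 clock gene each for ABF1, ABF3, DREB2A, FBH3 in batch 3 and HB7, and 0 for the other comparisons without a call. The share of all genes called by DESeq2 is not given here.

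The median log2 fold change of the 10 genes was 0.45 with MYBR1 and 0.37 with GBF2 in batch 2, where the median over all genes tested was -0.02 and -0.04. In the other 14 comparisons the median of the 10 genes lay between -0.15 for FBH3 in batch 1 and 0.27 for MYB3, with medians of all genes between -0.06 and 0.05.

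**Figure D2:**
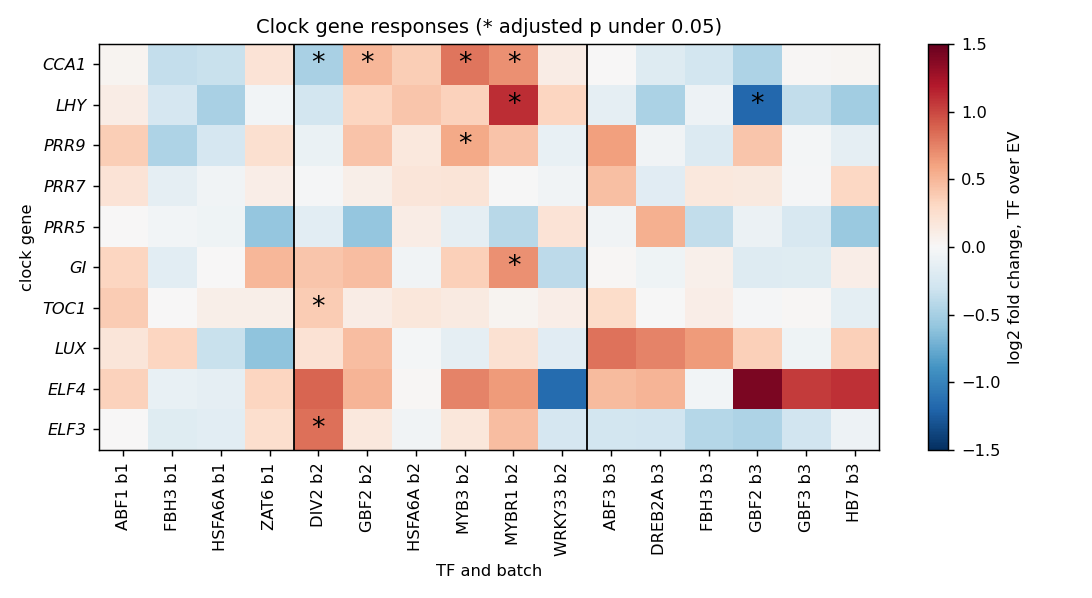
Heat map of log2 fold changes, TF over EV, for the 10 clock genes (rows) in the 16 comparisons (columns, with lines between batches), where * marks an adjusted p under 0.05. Of the 10 marks, 9 lie in batch 2 and 6 lie on CCA1 and LHY, and the dark ELF4 cells carry no mark. Of all genes tested, up to 18.1% were called per comparison in batch 2 and up to 8.85% in the other batches.

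CCA1, the dawn-phased repressor, was the gene with the most calls, 3 upward and 1 downward, all in batch 2. With MYB3, an R2R3-MYB repressor, CCA1 had 109, 85.1 and 91.2 CPM, against 52.5, 54.6 and 55.2 CPM in EV. All MYB3 libraries were above all EV libraries, and the log2 fold change was 0.81 ± 0.15 (SE; adjusted p = 0.00133). With MYBR1, an R2R3-MYB of the ABA response also known as MYB44, CCA1 had 78.4, 89.8 and 90.9 CPM, a log2 fold change of 0.68 ± 0.14 over the same EV libraries (SE; adjusted p = 0.00445). With GBF2, a bZIP factor that binds the G-box, it had 81.0, 82.5 and 67.3 CPM, a log2 fold change of 0.49 ± 0.15 (SE; adjusted p = 0.0429). In each of these 3 groups the libraries did not overlap with EV.

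DIV2, a MYB-related factor, was the TF of batch 2 with a downward call of CCA1. CCA1 had 41.8, 39.3 and 34.7 CPM with DIV2, against 52.5, 54.6 and 55.2 CPM in EV, a log2 fold change of -0.49 ± 0.15 (SE; adjusted p = 0.0314). All DIV2 libraries were below all EV libraries and below every library of the other vectors of batch 2. The call was lost, with an adjusted p of at most 0.107, without any 1 of DIV2 replicates 2 and 3 and the 3 EV libraries of batch 2. For GBF2 it was lost without any 1 of GBF2 replicates 1 and 2 and the 3 EV libraries (adjusted p of at most 0.137). A single model over all libraries called CCA1 with neither DIV2 nor GBF2 in batch 2. The calls for MYB3 and MYBR1 remained without each library in turn.

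When the other TF libraries of batch 2 served as control in place of EV, CCA1 was called with DIV2 alone of these 4 TFs, at a log2 fold change of -1.01 (adjusted p = 0.000737). Its log2 fold changes with MYB3, MYBR1 and GBF2 were then 0.53, 0.33 and 0.14, with adjusted p-values of 0.503, 0.747 and 0.853. Such a control pools libraries of different TFs, so the spread in this setting includes the differences between those TFs. The EV libraries of batch 2 also had the highest summed level of the 8 root markers in that batch, at 62.0 to 67.7 CPM. The sums were 22.0 to 29.9 CPM with GBF2, 31.4 to 50.3 with MYBR1, 40.5 to 46.0 with MYB3 and 45.3 to 52.6 with DIV2. Their part in these results was not tested.

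LHY, the closest relative of CCA1, showed the largest changes among the calls. With MYBR1 it had 92.8, 101 and 111 CPM, against 46.7, 49.9 and 45.6 CPM in EV. Every MYBR1 library was thus above every EV library, by a log2 fold change of 1.1 ± 0.15 (SE; adjusted p = 0.000124), or 2.15-fold. With GBF2 in batch 3 LHY had 42.4, 33.3 and 35.8 CPM, against 111, 68.1 and 82.1 CPM in EV. Here every GBF2 library was below every EV library, and the log2 fold change was -1.18 ± 0.16 (SE; adjusted p = 0.000504), or 0.441-fold. Without EV replicate 1 of batch 3, which had the highest LHY of the 3, the log2 fold change was -1.03 (adjusted p = 6.94e-05). Both calls remained without each library in turn and with the other TF libraries as control, at 0.83 for MYBR1 and -0.86 for GBF2.

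LHY and CCA1 did not always move to the same extent. With MYB3, LHY had 64.8, 55.6 and 61.5 CPM, a log2 fold change of 0.35 ± 0.14 (SE; adjusted p = 0.172), while CCA1 was called. In batch 2, LHY lay above EV in every library of GBF2, HSFA6A, MYB3, MYBR1 and WRKY33, but was called with MYBR1 alone. With EV of the same batch only, LHY was also called with MYB3 (adjusted p = 0.0192) and HSFA6A (0.0211). With DIV2 it had 33.5, 40.5 and 43.5 CPM, all below EV, at a log2 fold change of -0.28 ± 0.16 (SE; adjusted p = 0.305). With the other TF libraries of batch 2 as control, LHY was called with DIV2, as CCA1 was, at -0.82 (adjusted p = 0.0116). In batch 3, LHY had a log2 fold change of -0.52 ± 0.15 with HB7, an HD-Zip factor (SE; adjusted p = 0.0623), with 61.9, 63.5 and 50.5 CPM, all below EV. With HB7 it was called by DESeq2 (adjusted p = 0.0204), and in edgeR without EV replicate 2 of batch 3 (0.0163). With HSFA6A in batch 1, a heat shock factor, it had 35.5, 34.1 and 36.8 CPM, against 49.6, 50.7 and 48.4 CPM in EV, without overlap (log2 fold change -0.49 ± 0.15 (SE), adjusted p = 0.514).

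FBH3, a bHLH activator of CONSTANS, gave CCA1 levels of 27.5, 84.2 and 39.2 CPM in batch 1, against 63.5, 64.7 and 70.0 CPM in EV. The spread among these 3 libraries was the widest for CCA1 in any group. Without FBH3 replicate 2, the one library above EV, CCA1 was called at a log2 fold change of -0.97 (adjusted p = 0.00783), against -0.36 ± 0.30 (SE; adjusted p = 0.633) with it. The 8 root markers summed to 183 to 269 CPM with FBH3 in batch 1, the highest of the 19 groups, against 46.6 to 54.6 CPM in EV of that batch. The excess was not shared evenly by the markers. PHO1 reached 172 CPM and CASP1 67.5 CPM in this group, against means of 7.82 and 10.3 CPM in EV of batch 1. WER and COBL9 did not exceed 1.26 and 0.756 CPM in any library. The sum is therefore largely a value of single genes, and whether cell make-up differed was not tested. The part of the root markers in the FBH3 values of batch 1 (CCA1, BOA, TIC and CO) was not tested.

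**Figure D3:**
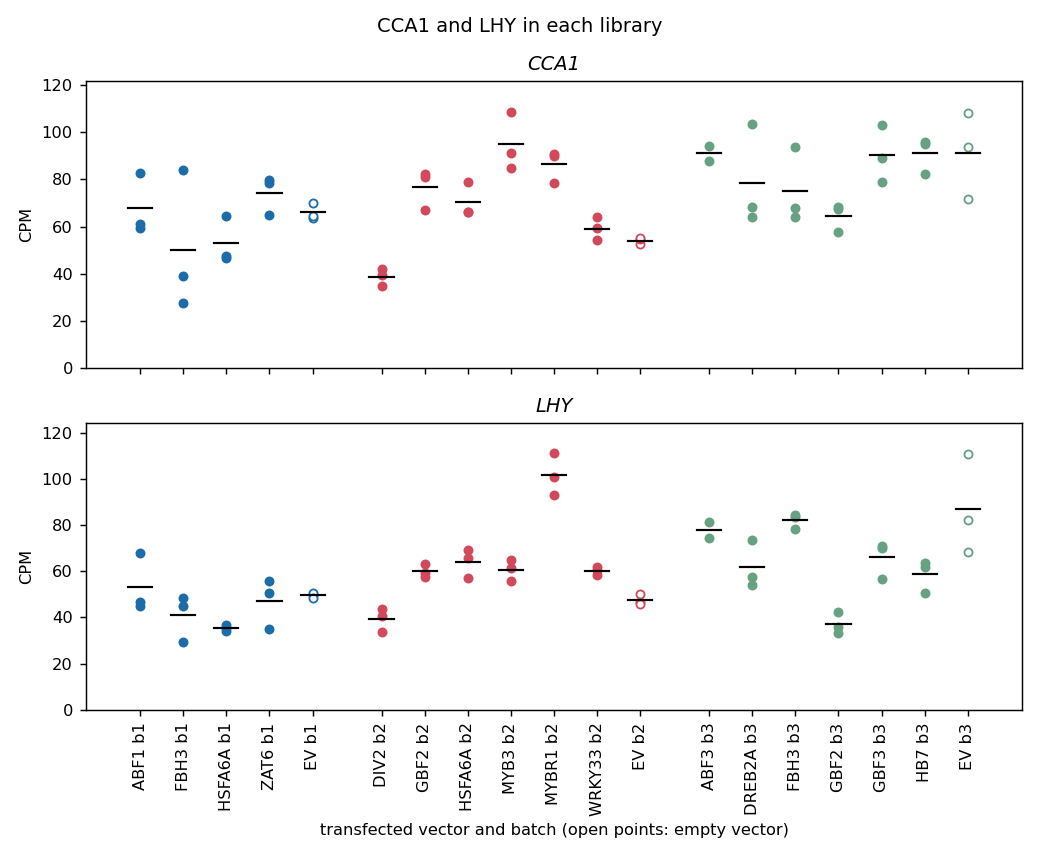
CPM of CCA1 (upper) and LHY (lower) in each of the 56 libraries, by vector and batch, with open points for EV and bars for group means. LHY is highest with MYBR1 in batch 2 (92.8 to 111 CPM) and lies below all EV libraries with GBF2 in batch 3 (33.3 to 42.4 CPM), and CCA1 is lowest with DIV2 in batch 2 by group mean.

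PRR9, the first of the pseudo-response regulators of the day, was called with MYB3. It had 47.8, 57.1 and 54.2 CPM with MYB3, against 35.3, 32.6 and 38.7 CPM in EV of batch 2. The groups did not overlap, and the log2 fold change was 0.57 ± 0.17 (SE; adjusted p = 0.0350). The call was lost without any 1 of MYB3 replicates 2 and 3 and the 3 EV libraries (adjusted p of at most 0.146), and with the other TF libraries as control (0.539). The highest PRR9 mean was with ABF3, an ABRE-binding bZIP factor, at 45.8 and 63.0 CPM, against 33.8, 35.9 and 38.0 CPM in EV of batch 3 (log2 fold change 0.61 ± 0.20 (SE), adjusted p = 0.182, 2 ABF3 libraries).

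PRR7 and PRR5, the later repressors of CCA1 and LHY, were not called. The log2 fold changes of PRR7 ran from -0.17 with DREB2A to 0.45 with ABF3. With ABF3, PRR7 had 36.4 and 33.1 CPM, against 16.8, 27.6 and 32.0 CPM in EV of batch 3. PRR5 ran from -0.59 with ZAT6, a zinc-finger factor, to 0.53 with DREB2A, a factor of the drought and heat response. PRR5 had 42.1, 38.8 and 38.0 CPM with DREB2A, against 36.7, 26.1 and 21.1 CPM in EV of batch 3, all above EV, at an adjusted p of 0.203. Without EV replicate 1 of batch 3, which had the highest PRR5 of the 3, the log2 fold change was 0.75 (adjusted p = 0.0137). With other TFs in place of EV, PRR5 had a log2 fold change of 0.80 with DREB2A (adjusted p = 0.00111). In every library of ZAT6, GBF2 in batch 2, MYBR1 and HB7, PRR5 lay below EV of the same batch. Its log2 fold changes there were -0.59, -0.57, -0.42 and -0.55 (adjusted p = 0.215, 0.105, 0.256 and 0.148). A single model over all libraries called PRR5 downward with ZAT6, GBF2 in batch 2 and HB7 (adjusted p = 0.0324, 0.0239 and 0.0333).

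GI was called with MYBR1, at 70.9, 57.3 and 63.8 CPM, against 43.2, 38.8 and 37.5 CPM in EV. Every MYBR1 library was above every EV library, and the log2 fold change was 0.69 ± 0.16 (SE; adjusted p = 0.00952). The call was lost without EV replicate 2 or 3 of batch 2 (adjusted p of at most 0.0558) and with the other TF libraries as control (log2 fold change 0.47, adjusted p = 0.453). GI also lay above EV in every library of DIV2 (51.0 to 56.1 CPM), GBF2 (52.1 to 60.1) and MYB3 (47.7 to 52.9) in batch 2, at log2 fold changes of 0.42, 0.46 and 0.36 and adjusted p-values of 0.0853, 0.0869 and 0.188. With EV of the same batch only all 3 were called (adjusted p of 0.0251, 0.0431 and 0.0229). With WRKY33, GI had 38.8, 28.1 and 25.8 CPM, which overlapped EV.

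TOC1, the evening repressor of CCA1 and LHY, was the steadiest of the 10. Its log2 fold changes lay between -0.15 with HB7 and 0.38 with DIV2, with a median size of 0.10. The call was with DIV2, where TOC1 had 175, 210 and 203 CPM, against 148, 156 and 147 CPM in EV (log2 fold change 0.38 ± 0.11 (SE), adjusted p = 0.0249). The DIV2 libraries were above all EV libraries. The call was lost without any 1 of DIV2 replicates 2 and 3 and the 3 EV libraries (adjusted p of at most 0.118), without a filter on low counts, and with the other TF libraries as control (at most 0.155). With ABF1, an ABRE-binding bZIP factor, TOC1 had 177, 189 and 167 CPM, against 134, 141 and 138 CPM in EV of batch 1, also without overlap. Its log2 fold change was 0.38 ± 0.10 with ABF1 (SE; adjusted p = 0.204), and DESeq2 called it (0.0366).

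ELF3, the scaffold of the evening complex, was called with DIV2, at 37.7, 40.4 and 35.4 CPM, against 20.8, 21.6 and 21.3 CPM in EV. This is a log2 fold change of 0.83 ± 0.14 (SE; adjusted p = 0.000584), or 1.78-fold, and the highest ELF3 mean of the 19 groups. It remained called without each library in turn and under all 8 other settings, from 0.70 with the other TF libraries as control to 0.86. With MYBR1, ELF3 had 32.5, 26.5 and 29.0 CPM, all above EV, at a log2 fold change of 0.47 ± 0.15 (SE; adjusted p = 0.0522), and DESeq2 called it (0.0367). With DIV2, then, the 3 called genes were CCA1 downward and TOC1 and ELF3 upward.

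LUX, the DNA-binding member of the evening complex, was not called. It had 27.2 and 20.4 CPM with ABF3, 19.3, 26.3 and 21.8 with DREB2A and 20.0, 21.9 and 21.6 with FBH3, against 14.4, 14.5 and 12 CPM in EV of batch 3. All of these libraries were above all EV libraries, and the log2 fold changes were 0.82, 0.74 and 0.64, with adjusted p-values of 0.0998, 0.0573 and 0.0749. Every library of GBF2 (15.9 to 17.9 CPM) and HB7 (15.8 to 18.3 CPM) in batch 3 was also above all EV libraries. Their log2 fold changes were 0.36 and 0.35 (adjusted p = 0.288 and 0.370), while GBF3 overlapped EV (-0.07). All comparisons of batch 3 share the same EV libraries, and the part of the EV level in these values was not tested. Without EV replicate 1 of batch 3, LUX was called with ABF3, DREB2A and FBH3. The log2 fold changes were then 0.85, 0.77 and 0.67, with adjusted p-values of 0.0443, 0.0364 and 0.0453. DESeq2 also called all 3, at adjusted p-values of 0.0454, 0.0276 and 0.0496. With the other TF libraries as control LUX was not called. The root markers summed to 49.1 to 59.7 CPM with FBH3 in batch 3, against 27.5 to 34.1 CPM in EV, and their part in LUX was not tested.

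ELF4, a small protein that holds ELF3 in the nucleus, had too few counts for firm statements. Its median standard error was 0.80 on the log2 scale, against 0.10 to 0.23 for the other 9 genes. The extremes were a log2 fold change of 1.42 ± 0.77 with GBF2 in batch 3 (SE; adjusted p = 0.299) and -1.15 ± 0.89 with WRKY33 (SE; adjusted p = 0.644). With WRKY33 it had 1.13, 0.759 and 2.08 CPM, against 2.58, 3.41 and 2.68 CPM in EV of batch 2.

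**Figure D4:**
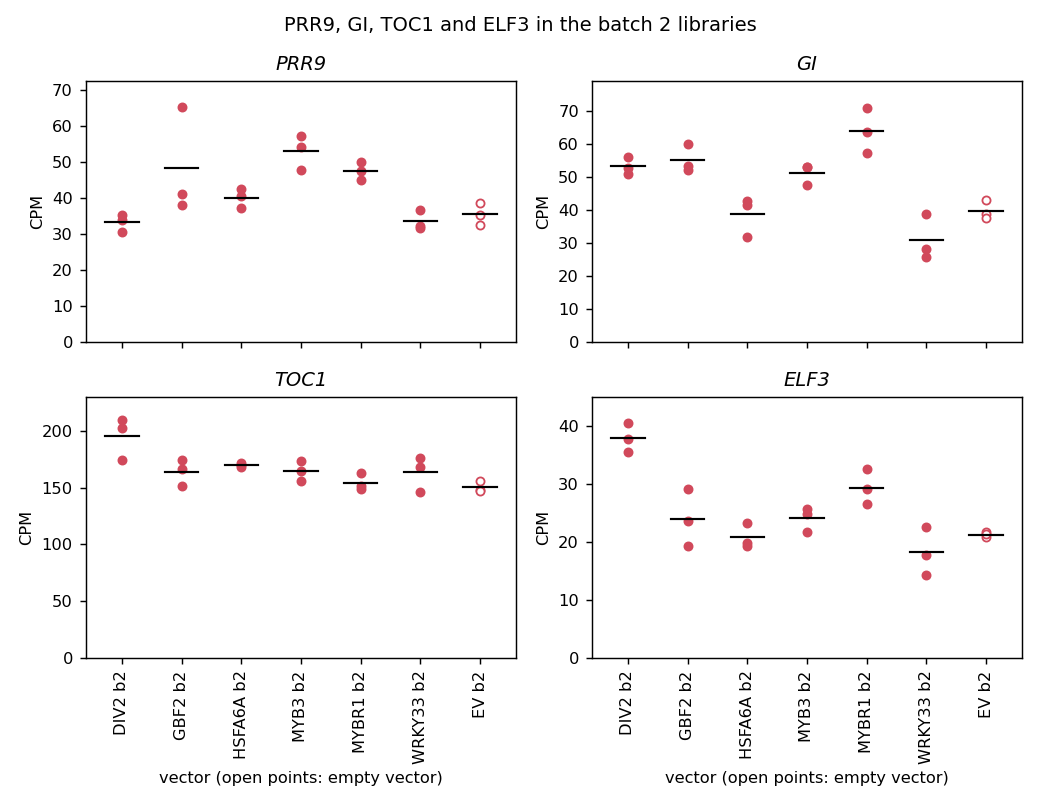
CPM of PRR9, GI, TOC1 and ELF3 in the 21 libraries of batch 2, with open points for EV and bars for group means. ELF3 with DIV2 (35.4 to 40.4 CPM) lies above all other libraries, and GI lies above EV with DIV2, GBF2, MYB3 and MYBR1.

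GBF2, HSFA6A and FBH3 were each assayed in 2 batches, which allowed the response of the clock genes to be compared between batches by an interaction term in edgeR. With GBF2, CCA1 and LHY differed between the batches, among 6.26% of all genes. The log2 fold change of CCA1 was -0.46 ± 0.14 (SE) in batch 3 and 0.49 ± 0.15 (SE) in batch 2, a difference of -0.97 ± 0.20 (SE; adjusted p = 0.00613). CCA1 had 57.8, 67.5 and 68.3 CPM with GBF2 in batch 3, against 71.7, 93.9 and 108 CPM in EV. Thus CCA1 lay below EV in one batch and above it in the other. The response of batch 3 was not called (adjusted p = 0.0511), but was called without EV replicate 1 of batch 3, at -0.67 (adjusted p = 0.00109), and with DESeq2 (0.00955). LHY had log2 fold changes of -1.18 ± 0.16 (SE) in batch 3 and 0.32 ± 0.15 (SE) in batch 2, a difference of -1.52 ± 0.22 (SE; adjusted p = 0.000257).

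Both differences with GBF2 remained called without each library in turn and in all 4 other settings. Without EV replicate 1 of batch 3 they were -1.12 for CCA1 (adjusted p = 0.000268) and -1.31 for LHY (adjusted p = 7.86e-05). On the level scale, CCA1 with GBF2 was 64.5 ± 5.82 CPM in batch 3 and 76.9 ± 8.42 in batch 2 (SD, n = 3 each), while EV was at 91.3 ± 18.4 and 54.1 ± 1.40. LHY with GBF2 was 37.2 ± 4.72 CPM in batch 3 and 59.9 ± 2.88 in batch 2, while EV was at 86.9 ± 21.6 and 47.4 ± 2.24 (SD, n = 3 each). The batches thus differed in the EV level of both genes, in the direction opposite to the GBF2 level. PRR9 with GBF2 had log2 fold changes of 0.41 and 0.43 in the 2 batches, and the other 8 genes were not called in this test, with GI nearest at an adjusted p of 0.0929 (DESeq2 called it, at 0.0375).

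With HSFA6A, LHY differed between the batches, among 2.56% of all genes. Its log2 fold change was 0.42 ± 0.15 (SE) in batch 2, where LHY had 68.9, 65.6 and 57.1 CPM, and -0.49 ± 0.15 (SE) in batch 1. The difference was 0.91 ± 0.21 (SE; adjusted p = 0.0208), although neither response was called on its own. It was lost, with an adjusted p of at most 0.0658, without any 1 of HSFA6A replicate 2 of batch 1, HSFA6A replicates 1 and 2 of batch 2, and EV replicates 1 and 3 of batch 2. CCA1 had a difference of 0.70 ± 0.21 (SE; adjusted p = 0.0987), which DESeq2 called (0.0243), as did edgeR without HSFA6A replicate 1 of batch 1 (0.0406). With FBH3 no clock gene differed between batches 3 and 1, where 0.0254% of all genes were called, and 0 of the 10 had an unadjusted p under 0.05 with edgeR and 0 were called with DESeq2.

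**Figure D5:**
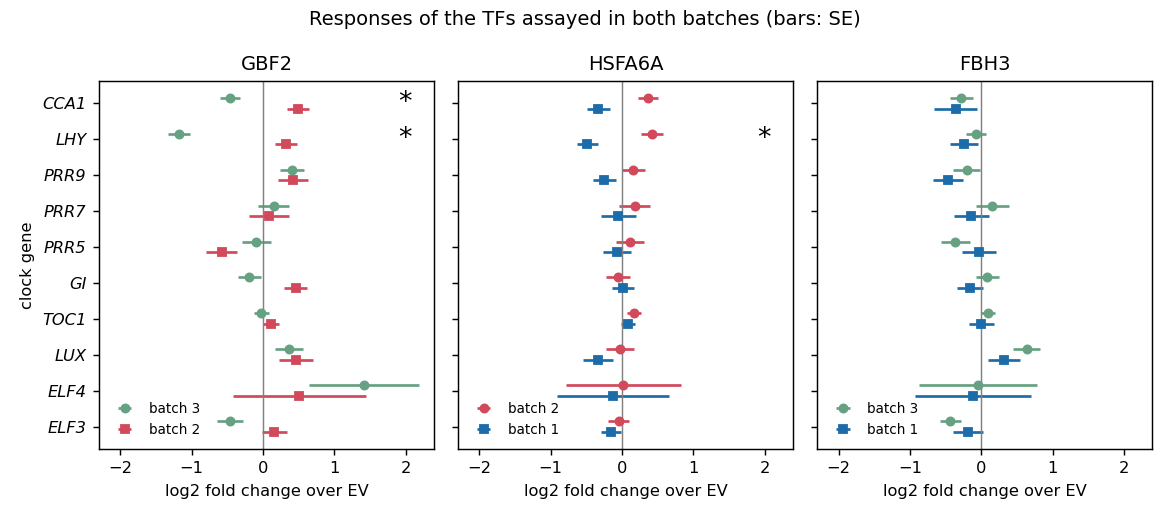
Log2 fold change over EV (points, with SE as bars) of the 10 clock genes for GBF2, HSFA6A and FBH3, each in both of its batches, where * marks an adjusted p under 0.05 for the difference between batches. CCA1 and LHY with GBF2 lie at -0.46 and -1.18 in batch 3, against 0.49 and 0.32 in batch 2.

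Further clock genes were examined through a list of 29, of which 28 were tested in at least 1 comparison. They held 28 calls, 24 upward and 4 downward, in 435 combinations tested (6.44%, near the 5.93% of all genes). The 4 downward calls, named after their values were seen, were RVE8 and LNK2 with GBF2 in batch 3, RVE4 with FBH3 in batch 3 and TIC with FBH3 in batch 1. Of the batch 2 comparisons, MYB3 and MYBR1 each had 5 of 27 called, all upward, GBF2 had 4 and DIV2 had 3. In these comparisons 10.6% (MYB3), 11.9% (MYBR1), 12.8% (GBF2) and 18.1% (DIV2) of all genes tested were called. The medians over the 27 were 0.13, 0.17, 0.24 and -0.06, against -0.02, -0.02, -0.04 and -0.01 for all genes.

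RVE1 and RVE2, MYB-like relatives of CCA1 and LHY, rose most with DIV2. RVE1 stood at 33.9 ± 2.53 CPM with DIV2 and 7.61 ± 0.512 CPM in EV (SD, n = 3 each), a log2 fold change of 2.15 ± 0.21 (SE; adjusted p = 3.15e-06). RVE2 stood at 90.4 ± 1.71 CPM with DIV2 and 24.1 ± 3.66 CPM in EV (log2 fold change 1.9 ± 0.24 (SE), adjusted p = 3.25e-05). CCA1 moved the other way with the same TF. Both were also called with GBF2 and MYBR1 in batch 2, at 1.83 and 0.98 for RVE1 and 1.5 and 1.44 for RVE2. RVE1 was called with MYB3 as well (0.78), and RVE2 with ABF3 (1.54). With GBF2 in batch 3 neither was called, at -0.06 for RVE1 and -0.13 for RVE2 (adjusted p = 0.917 and 0.810). With the other TF libraries of batch 2 as control, RVE1 was -0.49 with MYB3 and -0.30 with MYBR1, and of the batch 2 calls of these genes those with DIV2 remained. RVE1 lost its call with MYB3 without any 1 of the 6 libraries (adjusted p of at most 0.207) and with MYBR1 without MYBR1 replicate 2 or EV replicate 2 (at most 0.0601). RVE2 lost its call with ABF3 without ABF3 replicate 2 (0.106) and with EV of the same batch only (0.138).

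LNK2, LNK3 and LNK4 belong to a family of coactivators that work with RVE8 in the morning. LNK2 stood at 145 ± 10.8 CPM with MYB3 and 146 ± 23.8 with MYBR1, against 93.3 ± 7.10 CPM in EV (SD, n = 3 each), at log2 fold changes of 0.63 ± 0.13 and 0.65 ± 0.15 (SE; adjusted p = 0.00536 and 0.00952). In batch 3 it fell with GBF2, to 62.8 ± 12.4 CPM, against 112.7 ± 7.24 CPM in EV (log2 fold change -0.80 ± 0.16 (SE), adjusted p = 0.00587). With GBF2 in batch 2 it was not called (-0.31, adjusted p = 0.318). LNK3 rose with MYB3 (0.92 ± 0.16), MYBR1 (0.83 ± 0.16) and ABF3 (0.84 ± 0.19; SE, on the log2 scale). LNK4 rose with DIV2, GBF2, MYB3 and MYBR1 in batch 2, by 0.92 to 1.36 on the log2 scale. It also rose with FBH3 in batch 3, by 1.26 ± 0.26 (SE; adjusted p = 0.00820). LNK4 was not called with GBF2 in batch 3 (-0.03, adjusted p = 0.961) or with FBH3 in batch 1 (0.92, adjusted p = 0.0632). With the other TF libraries of batch 3 as control, LNK2 with GBF2 was not called (-0.39, adjusted p = 0.0806). With the other TF libraries of batch 2 as control LNK4 was -0.13 with MYB3, and none of the LNK calls of that batch remained. Single libraries decided 5 of these calls. LNK2 with MYBR1 was lost without MYBR1 replicate 3 or EV replicate 1 (adjusted p of at most 0.0530), and LNK3 with ABF3 without either ABF3 library or EV replicate 2 (at most 0.290). LNK3 with ABF3 was also lost with EV of the same batch only and with other TFs as control (at most 0.277). LNK4 was lost with FBH3 without FBH3 replicate 3 (0.0546) and with MYBR1 without MYBR1 replicate 3, EV replicate 2 or EV replicate 3 (at most 0.0660). With MYB3 it was lost without any 1 of the 6 libraries but EV replicate 1 (at most 0.209).

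BOA, a homologue of LUX, was called upward with ABF1, FBH3 in batch 1, GBF2 in batch 2, MYB3 and ABF3. It was not called with GBF2 or FBH3 in batch 3, at log2 fold changes of 0.81 and 1.06 (adjusted p = 0.146 and 0.0696). Its level with ABF3 was 23.0 ± 0.111 CPM (SD, n = 2), against 6.16 ± 1.81 CPM in EV (SD, n = 3), a log2 fold change of 1.9 ± 0.33 (SE; adjusted p = 0.00699). With ABF1 it stood at 14.5 ± 2.65 CPM, against 4.5 ± 1.43 CPM in EV (SD, n = 3 each), at 1.67 ± 0.32 (SE; adjusted p = 0.0298), a call lost without any 1 of the 6 libraries (adjusted p of 0.0810 to 0.201). BOA also lost its call with FBH3 without FBH3 replicate 3 or EV replicate 2 (at most 0.0703), with ABF3 without either ABF3 library (at most 0.0798), and with MYB3 without any 1 of the 6 libraries but MYB3 replicate 3 (at most 0.132). All 5 BOA calls were lost with the other TF libraries as control, with adjusted p-values of 0.0766 to 0.973.

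Of 13 genes that act downstream of the clock, 11 were tested in at least 1 comparison, with 16 calls in 161 combinations (9.94%, against 5.93% of all genes), 11 upward and 5 downward. The 16 include PIF5 with HB7, named after its value was seen, at a mean of 3.29 CPM against 0.0756 CPM in EV. PIF5 passed the filter on low counts in that 1 comparison alone, so its call carries no weight beside the share of all genes. CDF5, a DOF-type repressor of CONSTANS, rose with ABF3 to 62.7 ± 11.5 CPM (SD, n = 2), against 9.33 ± 4.84 CPM in EV (SD, n = 3), a log2 fold change of 2.73 ± 0.37 (SE; adjusted p = 0.000951). It rose with ABF1 as well (1.84 ± 0.35 (SE), adjusted p = 0.0281) and fell with WRKY33 (-1.76 ± 0.41 (SE), adjusted p = 0.0149). GRP8, a clock-controlled RNA-binding protein, rose with ZAT6 (0.74 ± 0.17 (SE), adjusted p = 0.0288) and fell with MYBR1 and WRKY33 (-0.49 and -0.65, adjusted p = 0.0277 and 0.00775). The calls of CDF5 with ABF1 and WRKY33 were lost without 5 and 4 of the 6 libraries in turn (adjusted p of at most 0.176 and 0.0923). Those of GRP8 with ZAT6, MYBR1 and WRKY33 were lost without 5, 4 and 1 of them (at most 0.119, 0.189 and 0.0581) and with other TFs as control, and that with ZAT6 also with EV of the same batch only (at most 0.0597). CONSTANS (CO), named after its value was seen, was called with FBH3 in batch 1, at 6.38 ± 3.46 CPM against 0.652 ± 0.0475 CPM in EV (SD, n = 3 each; log2 fold change 3.30 ± 0.75 (SE), adjusted p = 0.0137). That call was lost without FBH3 replicate 3 or any 1 of the 3 EV libraries of batch 1 (adjusted p of at most 0.0712). CO was tested in all 16 comparisons and called in this 1 alone, so it was not called with FBH3 in batch 3.

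CCA1 and LHY had the highest correlation of any pair across the 56 libraries, among the 9 clock genes other than ELF4, whose mean log2 CPM was under 3, a Pearson r of 0.61 on log2 CPM after the mean of each batch was subtracted. CCA1 and PRR9 followed at 0.53, and GI and ELF3 at 0.47. Among all 9299 genes tested in each comparison with a mean log2 CPM of at least 3, the 5 most like CCA1 were TAT3 (0.75), NIG (0.74), AT1G32970 (0.74), LNK1 (0.73) and AT5G66900 (0.72). LNK1, the sister gene of LNK2, was the one clock gene among the 5. These correlations are descriptions over 56 libraries that share batches, controls and library depth.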

How the data were processed

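Root protoplasts were assayed by RNA-seq in 56 libraries. The authors aligned reads to TAIR10 with HISAT2 (2.0.5), used GenomicFeatures and GenomicAlignments for counting, tested with DESeq2 (1.22.1) and deposited raw counts per gene, 1 table per library with 33016 genes, of which 32795 had an entry in the RefSeq annotation (TAIR10.1) used for names, lengths and sequences. Whether counting used strand is not stated. Here the libraries of a TF in 1 batch and the 9 EV libraries were fitted together with a batch term in edgeR (4.0.16, R 4.3.3; quasi-likelihood, TMM, filterByExpr with min.count 10), and p-values were adjusted by Benjamini-Hochberg over all genes tested. This follows the TF+Batch model of the study. The study's removal of genes that respond to cycloheximide was not repeated. Differences between batches were tested by an interaction term, and differences between EV batches by an F test. CPM was scaled by TMM over all libraries, and EV levels beside a TF are those of the same batch. Total counts ran from 8619133 to 29763752 per library, and the limit given for a count of 0 covers counting error only.

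The scripts were tested on simulated data. The 55 replicate pairs all differed by more than sampling noise (lowest chi-square over its degrees of freedom, 3.96). The members, lists and tests were chosen with earlier results of these data known. The genes named are the 10 clock genes, the 8 genes of the lists of 29 other clock genes and 13 output genes called in the most comparisons (ties by the larger median absolute log2 fold change), and the 5 genes most like CCA1, which was also the clock gene with the most calls. Groups come from the labels. Alternatives tried were DESeq2 (1.42.0), its size factors in edgeR, no filter, EV of the same batch only, other TF libraries as control, a single model over all libraries, a replicate block, removal of 4 ribosomal loci, and each library left out in turn. The upstream stretch of ELF4 is not reported here.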

Additional observations from a re-analysis of the deposited data

Results flagged for a closer look

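These 3 results are listed because the response of 1 TF differed between 2 batches by the interaction test of edgeR. With GBF2, the response of CCA1 in batch 3 minus that in batch 2 was -0.97 ± 0.20 on the log2 scale (SE; adjusted p = 0.00613), with all 3 GBF2 libraries below all 3 EV libraries in batch 3 and all 3 above in batch 2. For LHY the same difference was -1.52 ± 0.22 (SE; adjusted p = 0.000257), again with every library below EV in batch 3 and above EV in batch 2. With HSFA6A, the response of LHY in batch 2 minus that in batch 1 was 0.91 ± 0.21 (SE; adjusted p = 0.0208), with every library above EV in batch 2 and below EV in batch 1. For GBF2 the EV levels of both genes also differed between the batches, while LHY in EV stood at 47.4 ± 2.24 CPM in batch 2 and 49.6 ± 1.16 CPM in batch 1 (SD, n = 3 each). The batch and the set of EV libraries cannot be told apart. Groups of 3 libraries are too small for the test of single outlying libraries.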

How the results depend on the processing

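The 10 calls of clock genes against EV kept their direction in all settings run, and 10 remained called with DESeq2, with its size factors in edgeR, with EV of the same batch only, with the replicate block and without the 4 ribosomal loci, 9 without a filter, 8 in a single model and 4 with the other TF libraries as control. The count over the 16 comparisons was 17 with DESeq2, 18 with EV of the same batch only and 17 with the replicate block, against 10. The share of all genes called under these and the other alternative settings is not given here. Higher counts of clock genes can therefore not be told apart from more calls of all genes. DESeq2 called 1 clock gene for ABF1, ABF3, DREB2A, HB7 and FBH3 in batch 3, 2 for GBF2 in batch 3 and 2 for HSFA6A between batches. Size factors and removal of the ribosomal loci each gave 2 for GBF2 in batch 3, and no filter gave 2 there and 1 each for DREB2A and HB7. EV of the same batch only gave 2 for GBF2 and HSFA6A, 4 for MYB3 and 5 for MYBR1 in batch 2. The other TF libraries as control gave 0 for GBF2 and MYB3, 1 for MYBR1 and 2 for WRKY33 in batch 2, and 1 for DREB2A, and turned round RVE1 with MYB3 and MYBR1 (-0.49 and -0.30) and LNK4 with MYB3 (-0.13). A single model gave 1 for ZAT6, ABF3 and DREB2A and 2 for HB7 and for GBF2 in batch 2. The cause was not tested.

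The replicate numbers were not taken to pair the libraries, since in 0 of the comparisons with 3 pairs did every same-numbered pair correlate above 0.1 (range -0.10 to 0.31 over all pairs), while both pairs of ABF3 lay just above it (0.130 and 0.103). The replicate block with EV of the same batch gave 2 for HSFA6A, 4 for MYB3 and 5 for MYBR1 in batch 2, and a block within each batch gave 2 for HSFA6A between batches (CCA1 added, adjusted p = 0.00366). The block also called LHY with MYB3 (0.0137) and HSFA6A (0.00936) in batch 2, and did not call LNK2 with GBF2 in batch 3 (adjusted p above 0.05). With 1 library left out, the counts ran from 0 to 1 for FBH3 in each batch, GBF2 in batch 2, ABF3 and HB7, 0 to 2 for DREB2A and HSFA6A between batches, 1 to 2 for MYB3 and GBF2 in batch 3, 1 to 3 for DIV2, 2 to 3 for MYBR1 and GBF2 between batches, and 1 to 4 for EV batches, and stayed at 0 for ABF1, ZAT6, WRKY33, GBF3 and HSFA6A in each batch and for FBH3 between batches. The planned removal of AT2G01010, AT2G01020, AT3G41768 and AT3G41979 was not run, since the tables used here do not list them, and AT3G06365, AT2G03875, AT2G03865 and AT2G01021 were removed instead, a choice made after seeing the data. Depth limits ELF4 most, with a median of 59.5 counts.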
